A study of Homo sapiens with 6 samples.

Results

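The 9 genes described here are the RAS genes NRAS and HRAS and 7 genes for inhibitors of RAS-ERK signalling, the phosphatases DUSP4, DUSP5 and DUSP6, the Sprouty genes SPRY2 and SPRY4 and the SPRED genes SPRED1 and SPRED2. They were chosen by name, each was found once among the 60617 rows of the count table, and all 9 were among the 17223 genes with enough counts to test. RNA was sequenced from NCI-H1299 cells, an established human lung cancer line, in 3 libraries with FuHsi knocked down, titled Sh1, and 3 wild-type control libraries, titled Puro. The labels do not spell out Sh1 or Puro and give FuHsi no gene symbol, so the knockdown could not be checked on its own transcript. Nothing in the labels says that replicates came from separate cultures, so p-values measure only the spread between these libraries, which may be technical.

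RAS proteins are small GTPases that switch signalling on when they bind GTP. Growth factor receptors load RAS with GTP, RAS then recruits RAF kinases, and RAF, MEK and ERK kinases act in sequence. Active ERK raises transcription of several of its own inhibitors: dual-specificity phosphatases (DUSPs) remove the activating phosphates from ERK, while Sprouty and SPRED proteins act above it on the path from receptor to RAF. NCI-H1299 is known to carry an activating NRAS mutation, which keeps this route on. Counts per gene do not tell the mutant from the normal allele, and they measure RNA, not ERK activity.

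Knockdown libraries held 24231515 to 27900051 counts and control libraries 30735547 to 34306849. Levels are given in CPM, which sets each gene's count against the total of its library, scaled by trimmed means of M values (TMM), and a gene was called at a Benjamini-Hochberg adjusted p under 0.05 by edgeR's quasi-likelihood test over all tested genes. This threshold was passed by 61.6% of tested genes, 30.7% (5295) higher and 30.9% (5317) lower in knockdown, so a call by itself says little about a gene. With libraries scaled by their totals only (library size alone), the median log2 fold change of all tested genes moved up by 0.15, and 6986 genes were called higher and 3855 lower. Of 6 epithelial markers, KRT8, KRT18 and KRT7 averaged over 1 CPM and EPCAM, CDH1 and KRT19 did not. All 5 lung adenocarcinoma markers, NKX2-1 among them, averaged under 1 CPM, with summed levels of 0.705 to 1.05 CPM in knockdown and 0.0918 to 0.450 CPM in control. Of these, NAPSA was called higher, with 11 to 20 counts in knockdown libraries and 0 to 4 in control libraries. Immune markers summed to 1.01 to 1.49 CPM in knockdown and 0.339 to 0.519 CPM in control. That sum rests on few counts, and CD3E had 20 in knockdown replicate 3 and 0 in every other library. PTPRC was itself called higher, with 14 to 25 counts in knockdown libraries and 4 to 16 in control libraries (edgeR, adjusted p = 0.0112). Endothelial markers summed to 1.135 to 2.01 CPM in knockdown and 1.04 to 1.49 CPM in control, which overlap. Fibroblast markers overlapped too, at 1.14 to 2.77 CPM in knockdown and 1.28 to 2.65 CPM in control. Abundant markers moved as well. Epithelial markers summed to 616 to 665 CPM in knockdown and 825 to 835 CPM in control, where KRT8 fell by 0.63 on the log2 scale and KRT18 was not called (-0.06). KRT7 went the other way and rose by 1.72, at 4.10 CPM in knockdown and 1.24 CPM in control. Mesenchymal markers, with none of the 3 under 1 CPM, summed to 937 to 996 CPM in knockdown and 1440 to 1491 CPM in control, where VIM fell by 0.70, FN1 rose by 0.93 and CDH2 was not called (-0.01). The part of these markers in the results was not tested. In bulk RNA, fewer cells with a transcript and less of it per cell cannot be told apart.

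All 9 genes were called, against 61.6% of tested genes. Both RAS genes and both Sprouty genes fell, and the 3 phosphatase genes and both SPRED genes rose. All knockdown libraries stood above all control libraries for 5 of the 9 and below them for 4, against 33.0% and 32.3% of tested genes (65.3% in either direction). The median size of the change, without its sign, was 0.55 log2 units over the 9 and 0.39 over all tested genes. The falls ran from -0.54 to -0.83 and the rises from 0.21 to 1.10.

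**Figure D1:**
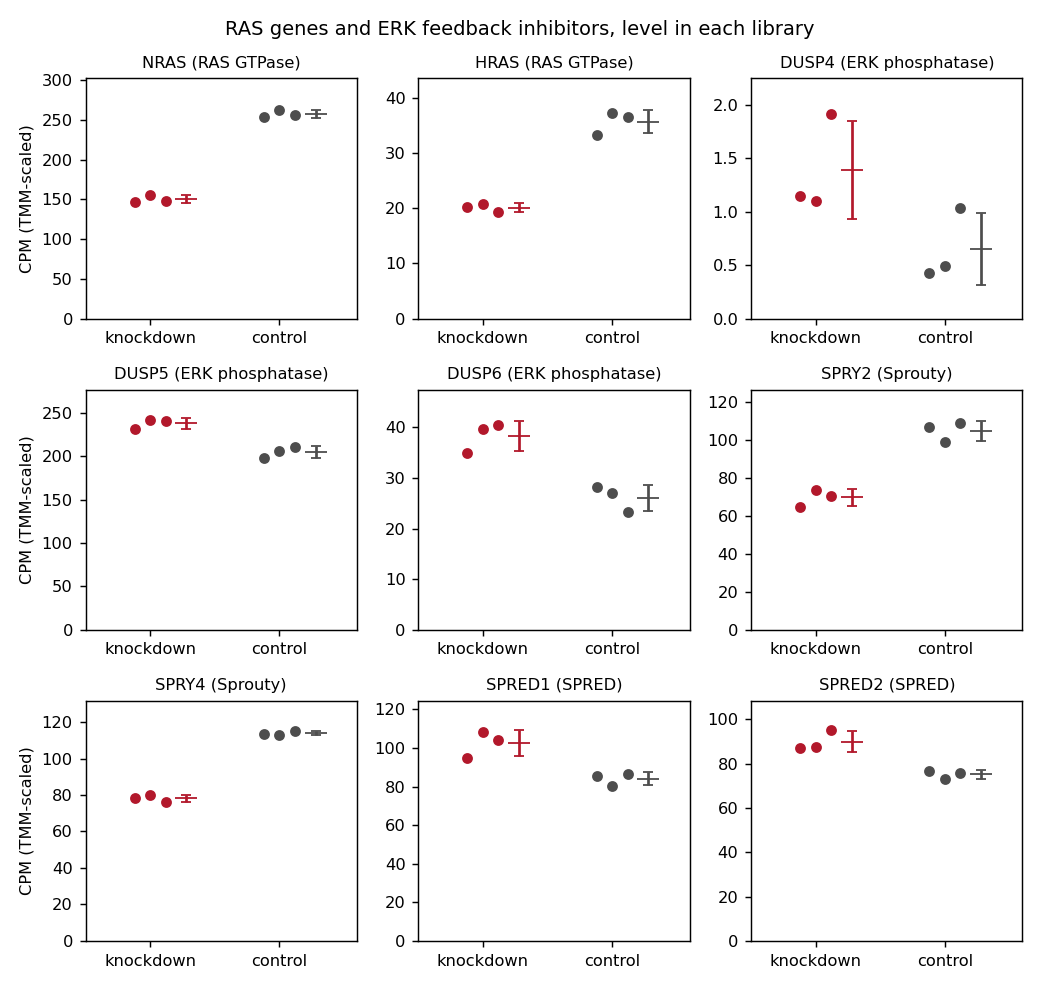
Level in TMM-scaled CPM (vertical axes, linear and starting at 0) of each gene in the 3 knockdown libraries (red) and the 3 control libraries (grey), with the mean and SD beside the points. NRAS, HRAS, SPRY2 and SPRY4 are lower in every knockdown library, and DUSP4, DUSP5, DUSP6, SPRED1 and SPRED2 are higher.

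The RAS genes fell by similar amounts. NRAS (ENSG00000213281, GRCh38 chromosome 1, 114704469 to 114716894, minus strand) had 147, 156 and 148 CPM in knockdown libraries, against 254, 263 and 257 CPM in control libraries. Its raw counts were 3793 to 4333 in knockdown and 7413 to 8532 in control, so counting error is small. The 3 knockdown libraries lay close together and far below the controls. The mean was 150.2 ± 4.87 CPM in knockdown and 258 ± 4.70 CPM in control (SD, n = 3 each), which is -0.78 ± 0.04 (SE) as a log2 fold change (edgeR, adjusted p = 3.40e-27). HRAS (ENSG00000174775, chromosome 11, 532242 to 537287, minus strand) encodes the RAS protein first found in Harvey rat sarcoma virus. It had 20.2, 20.8 and 19.3 CPM in knockdown libraries, against 33.2, 37.2 and 36.5 CPM in control libraries. All 3 knockdown values again lay below all 3 control values, and the log2 fold change was -0.83 ± 0.07 (SE; edgeR, adjusted p = 3.24e-15). Of all tested genes, 6.71% had a lower fold change than NRAS and 5.85% a lower one than HRAS.

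The ratio of NRAS to HRAS counts within a library does not depend on scaling. Its log2 value was 2.86, 2.90 and 2.94 in knockdown libraries, against 2.93, 2.82 and 2.81 in control libraries. The groups overlapped, with means of 2.90 ± 0.04 in knockdown and 2.86 ± 0.07 in control (SD, n = 3 each). The difference of 0.05 did not pass an exact 2-sided permutation test (p = 0.3, adjusted p = 0.5 over 5 pairs). With 3 libraries against 3 that test cannot go below 0.1, so it could not have passed a threshold of 0.05 for any pair.

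The 3 phosphatase genes rose, at very different levels. DUSP6 (ENSG00000139318, chromosome 12, 89347232 to 89353271, minus strand) encodes a cytoplasmic phosphatase selective for ERK and is widely used as a transcript marker of ERK activity. It had 34.9, 39.6 and 40.4 CPM in knockdown libraries, against 28.1, 27.0 and 23.2 CPM in control libraries. The lowest knockdown library stood above the highest control library, and the log2 fold change was 0.55 ± 0.07 (SE; edgeR, adjusted p = 1.99e-09). DUSP6 shares 40.5% of its exonic bases with AC024909.2, annotated on the opposite strand, and whether reads were counted by strand is not stated in the sources used. The row for AC024909.2 held 6 to 11 counts in knockdown libraries and 2 to 7 in control libraries, while DUSP6 had 1005 to 1031 in knockdown and 670 to 919 in control.

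DUSP5 (ENSG00000138166, chromosome 10, 110497838 to 110511544, plus strand) encodes a nuclear ERK phosphatase. Its level was 231, 242 and 240.3 CPM in knockdown libraries, against 198, 207 and 211 CPM in control libraries. The groups were close but did not overlap, and DUSP5 had the smallest change of the 9 genes, at 0.21 ± 0.04 on the log2 scale (SE; edgeR, adjusted p = 5.74e-07). Library size alone made it 0.37. DUSP4 (ENSG00000120875, chromosome 8, 29333064 to 29350668, minus strand) encodes another nuclear phosphatase of the family. It was barely detected, with 34, 28 and 49 counts in knockdown libraries and 14, 16 and 30 in control libraries. These are 1.15, 1.10 and 1.92 CPM in knockdown, against 0.428, 0.493 and 1.04 CPM in control, and the third library of each group was its highest. The lowest knockdown value, 1.10, was just above the highest control value, 1.04. The log2 fold change was 1.10 ± 0.38 (SE; edgeR, adjusted p = 0.00991), the largest and least certain of the 9. The call was lost without knockdown replicate 3 (0.79, adjusted p of 0.12), without control replicate 1 (0.86, adjusted p of 0.0664) or control replicate 2 (0.93, adjusted p of 0.0517), and in DESeq2 (1.07, adjusted p of 0.0552).

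Within libraries, the log2 ratio of DUSP5 to DUSP6 counts averaged 2.64 ± 0.08 in knockdown and 2.98 ± 0.19 in control (SD, n = 3 each). The groups did not overlap and the difference was -0.34, with an exact permutation p of 0.1, the smallest possible, and an adjusted p of 0.5. The log2 ratio of DUSP4 to DUSP6 ran from -5.14 to -4.38 in knockdown and from -5.99 to -4.46 in control, and the groups overlapped. Its difference of 0.58 had an exact permutation p of 0.3 and an adjusted p of 0.5.

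The Sprouty genes fell together. Sprouty proteins bind adaptors and RAF and dampen signalling from growth factor receptors. SPRY2 (ENSG00000136158, chromosome 13, 80335976 to 80340951, minus strand) had 64.9, 73.7 and 70.7 CPM in knockdown libraries, against 107, 98.9 and 109 CPM in control libraries. Even the highest knockdown library was well under the lowest control library. On the log2 scale SPRY2 changed by -0.59 ± 0.05 (SE; edgeR, adjusted p = 2.14e-16). SPRY4 (ENSG00000187678, chromosome 5, 142310427 to 142326455, minus strand) had 78.3, 80.2 and 75.9 CPM in knockdown libraries, against 113, 113 and 115 CPM in control libraries. Its libraries lay close together, with a coefficient of variation of 2.73% in knockdown and 1.00% in control, and the groups were well apart. SPRY4 changed by -0.54 ± 0.04 on the log2 scale (SE; edgeR, adjusted p = 7.22e-17). The log2 ratio of SPRY2 to SPRY4 counts averaged -0.16 ± 0.09 in knockdown and -0.12 ± 0.07 in control (SD, n = 3 each). That difference of -0.05 was within the spread of the libraries (exact permutation p = 0.5, adjusted p = 0.625).

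Both SPRED genes rose, in contrast to the Sprouty genes. SPRED proteins bring the RAS GTPase-activating protein neurofibromin to the membrane, where it switches RAS off. SPRED1 (ENSG00000166068, chromosome 15, 38252326 to 38357249, plus strand) had 95.04, 108 and 104 CPM in knockdown libraries, against 85.6, 80.4 and 86.4 CPM in control libraries. SPRED2 (ENSG00000198369, chromosome 2, 65310851 to 65432637, minus strand) had 87.0, 87.4 and 95.2 CPM in knockdown libraries, against 76.7, 73.04 and 75.6 CPM in control libraries. For each gene the lowest knockdown library was above the highest control library. Log2 fold changes were 0.28 ± 0.05 for SPRED1 and 0.26 ± 0.05 for SPRED2 (SE), with adjusted p-values of 3.74e-07 and 3.01e-06 by edgeR. They became 0.44 and 0.41 with library size alone. The log2 ratio of SPRED1 to SPRED2 counts averaged 0.19 ± 0.10 in knockdown and 0.16 ± 0.03 in control (SD, n = 3 each), and its difference of 0.03 gave an exact permutation p of 1.0.

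**Figure D2:**
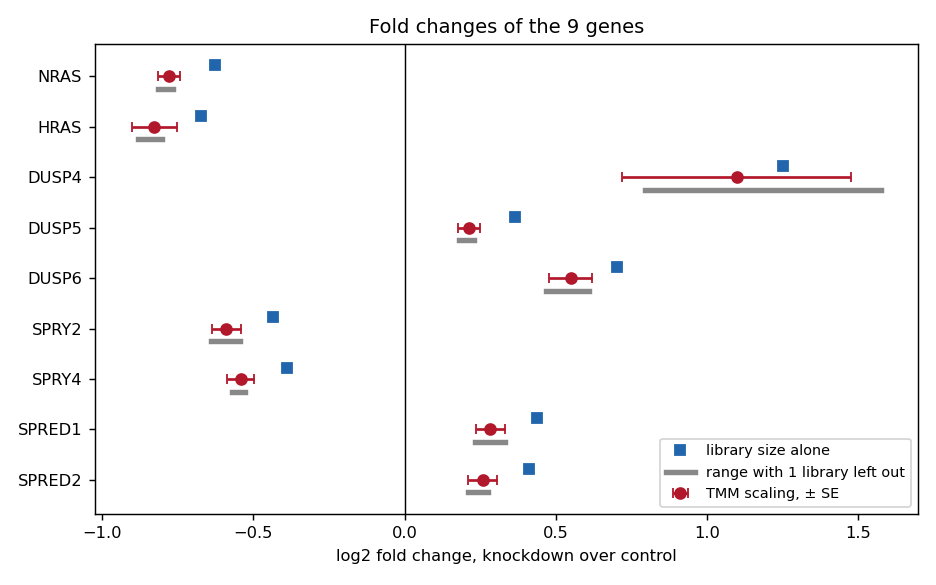
Log2 fold change, knockdown over control, of the 9 genes: with TMM scaling (red points, bars are ± SE), with library size alone (blue squares), and the range when 1 library is left out (grey lines). Library size alone moved each value to the right, but NRAS, HRAS, SPRY2 and SPRY4 stayed between -0.67 and -0.39 and the other 5 between 0.37 and 1.25.

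**Figure D3:**
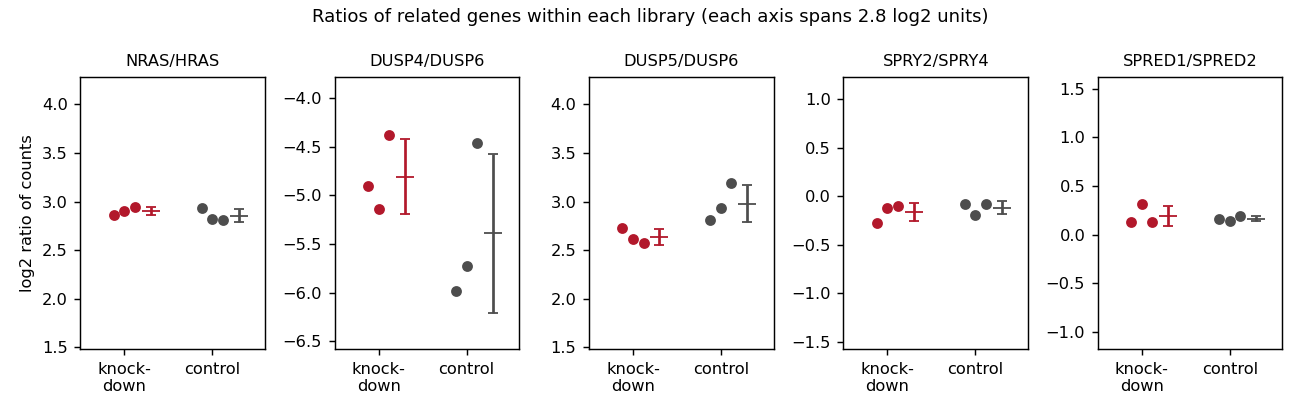
Log2 ratio of counts of related genes in each knockdown library (red) and control library (grey), with mean and SD beside the points. The groups overlap for NRAS/HRAS, DUSP4/DUSP6, SPRY2/SPRY4 and SPRED1/SPRED2, and DUSP5/DUSP6 is lower in every knockdown library.

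Levels of different genes can be set beside each other only per length, here as CPM per kilobase of merged exons. In knockdown the order was DUSP5 (90.95), NRAS (33.8), SPRY2 (23.0), SPRED2 (17.4), SPRED1 (12.4), SPRY4 (11.9), HRAS (10.8), DUSP6 (8.26) and DUSP4 (0.192). In control it was DUSP5 (78.5), NRAS (57.9), SPRY2 (34.5), HRAS (19.2), SPRY4 (17.3), SPRED2 (14.6), SPRED1 (10.2), DUSP6 (5.63) and DUSP4 (0.0900). SPRED1 and SPRY4 in knockdown, at 11.5 to 13.1 and 11.6 to 12.2 CPM per kilobase, were the neighbours whose libraries overlapped. By this length SPRED2 stood above SPRY4 and HRAS in mean level in knockdown and below them in control. SPRED1 did the same by this length, but with the longest annotated transcript as the length it stood below SPRY4 in both groups, at 13.2 and 14.6 CPM per kilobase in knockdown and 10.8 and 21.3 in control. By that length HRAS stood at 16.3 in knockdown and 28.9 in control, above SPRED1 and SPRY4 in both groups, and SPRED2 at 21.9 in knockdown and 18.3 in control.

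The sequences below show where these genes hold words of 7 bases in their 3′ UTR. The first word searched was CTATTGA, which NRAS and DUSP6 hold. A second word was CCTATTG, which SPRY4 holds, and the third was ACCTATT, which SPRED1 holds. These 3 words overlap one another and were taken from an earlier scan of these same data, so a match is no independent support for that scan. Annotated 3′ UTRs of 16.3% of 13002 tested genes held at least 1 of the 3 words on the transcript strand. Of the 9 genes, NRAS and SPRY4, which fell, and DUSP6 and SPRED1, which rose, held 1 match each. The other 5 held none of these 3 words. The 3′ UTRs with a match were 2022 to 5585 bases long and those without were 393 to 3962. The share over all genes takes no account of length, so no excess can be read from these matches. A further word from the same scan, ACACATC, was in the 3′ UTR of 1 of the 9 genes, SPRED2, which rose, and in 8.56% of the 13002. The sites are given 5′ to 3′ on the transcript strand from GENCODE v29 on GRCh38, with the word in capitals.
NRAS, chr1:114707724-114707750, minus strand: acgtgaaattCTATTGAaaacagtgtc
DUSP6, chr12:89348051-89348077, minus strand: actattttggCTATTGAatgtgtgttt
SPRY4, chr5:142313623-142313649, minus strand: cctagcagttCCTATTGtatatacttg
SPRED1, chr15:38355309-38355335, plus strand: acttgaaactACCTATTttcattggtt
SPRED2, chr2:65310851-65310875, minus strand: gtaaatataaACACATCctatcaga

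Both HRAS and SPRY2 fell, and the 250 bases before their RefSeq starts (GRCh38.p14) are shown because no annotated exon reaches into them. The HRAS window lies within the annotated span of HRAS (532242 to 537287), not before it. SPRY2 has 3 RefSeq starts, and the most upstream one was used. RefSeq promoters were matched for 7 of the 9 genes. Capitals mark matches on either strand to 7 motifs. The ETS core was searched as CCGGAAG, the letters bound by many ETS factors. For AP-1, the factor formed by FOS and JUN proteins, the letters were TGAGTCA on either strand. A part of the cyclic AMP response element (CRE), here called the CRE part, was searched as TGACG in the same way. A match to it need not be a full element. For the GC box, known for binding SP1, the search used GGGCGG on both strands. The TATA box was searched as TATAAA wherever it stood in the window. For the E-box, bound by MYC among others, the letters were CACGTG, which read the same on both strands. The CCAAT box was searched by the letters of its name, and no motif was required to be free of overlap with another.
HRAS, chr11:535577-535826, minus strand: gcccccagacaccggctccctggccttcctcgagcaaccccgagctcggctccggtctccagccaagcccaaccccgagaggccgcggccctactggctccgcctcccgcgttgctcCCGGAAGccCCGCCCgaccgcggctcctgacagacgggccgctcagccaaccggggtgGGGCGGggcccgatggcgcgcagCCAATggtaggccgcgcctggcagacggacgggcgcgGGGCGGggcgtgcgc
SPRY2, chr13:80341127-80341376, minus strand: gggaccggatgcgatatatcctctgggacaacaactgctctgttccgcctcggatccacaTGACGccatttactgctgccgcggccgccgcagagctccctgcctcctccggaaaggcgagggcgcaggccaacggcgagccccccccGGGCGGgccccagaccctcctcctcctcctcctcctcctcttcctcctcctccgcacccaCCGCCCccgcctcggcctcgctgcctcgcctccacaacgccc
The HRAS window held 1 ETS core, 3 GC boxes and 1 CCAAT box. The SPRY2 window held 1 CRE part and 2 GC boxes. GC boxes were in 42.6%, CCAAT boxes in 32.0%, CRE parts in 21.2% and ETS cores in 8.52% of 35116 RefSeq promoters cut to the same 250 bases. AP-1 sites were in 4.20%, TATA boxes in 10.7% and E-boxes in 6.34% of them. Guanine and cytosine made up 77.2% of the HRAS window and 70.4% of the SPRY2 window.

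Around the 9 genes, 10 lists of pathway genes were counted. Of their 84 tested genes that are not among the 9, 38 rose, 31 fell and 15 were not called, with a median log2 fold change of 0.18 against 0.03 over all tested genes. The shares over all tested genes were 30.7% called higher and 30.9% called lower. Whether the lists differ from these shares was not tested. With library size alone 43 rose and 14 fell. That scaling turned the sign of 6 called genes, among them DAB2IP, RALB, PIK3CB, PHLDA1 and EPHA2, whose falls were weak with TMM, at -0.14, -0.15, -0.12, -0.11 and -0.09.

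**Figure D4:**
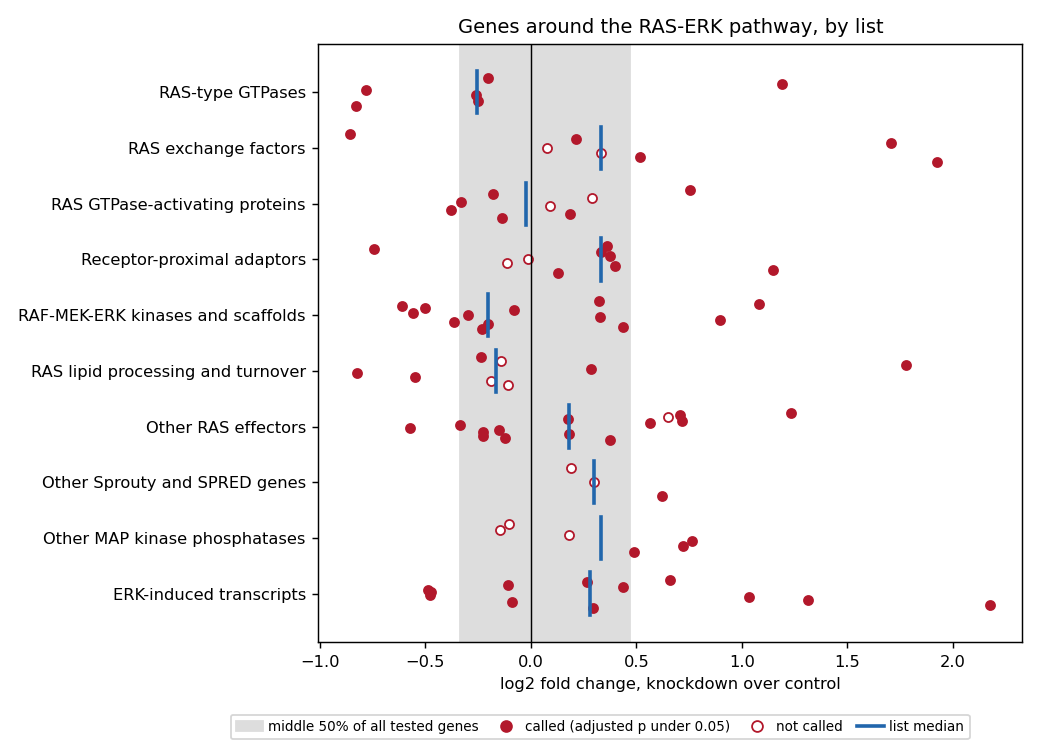
Log2 fold change, knockdown over control (horizontal axis), of each tested gene on 10 pathway lists, filled where called and open where not, with each list's median (blue line) and the middle 50% of all tested genes (grey band, -0.34 to 0.47). Most lists hold genes on both sides of 0, and the phosphatase list and the Sprouty and SPRED list hold no called fall.

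Among 6 RAS-type GTPases, which include NRAS and HRAS, 5 fell and 1 rose (median -0.25). The riser was RRAS, a relative of RAS linked to integrin signalling, with 62.9 ± 3.74 CPM in knockdown and 27.6 ± 1.61 CPM in control (SD, n = 3 each) and a log2 fold change of 1.19. RRAS2 and MRAS fell by 0.20 and 0.26 on the log2 scale. With library size alone both lost their calls, at -0.05 and -0.11, and the 5 falls on this list became 2, NRAS and HRAS. MRAS also lost its call in DESeq2 and with upper-quartile factors.

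Genes that turn RAS on or off moved in both directions. Of 7 tested exchange factors, which load RAS with GTP, 4 rose and 1 fell (median 0.33). RASGRP3, a diacylglycerol-responsive exchange factor, had 15.7 ± 1.17 CPM in knockdown and 4.80 ± 0.411 CPM in control (SD, n = 3 each), a log2 fold change of 1.71. RASGRF2 rose by 0.52, a call lost in DESeq2, after thinning to the smallest library and without knockdown replicate 1 or control replicate 2. SOS2 fell by 0.85, while its paralog SOS1, which links receptors to RAS, rose by 0.21. Of 8 tested GTPase-activating proteins, 2 rose and 4 fell (median -0.02). NF1, which encodes the neurofibromin that SPRED proteins recruit, rose by 0.19 to 134 ± 1.81 CPM in knockdown, against 117 ± 5.56 CPM in control (SD, n = 3 each). RASA1 and RASA3 fell by 0.38 and 0.33, and RASA1 has 14.7% of its exonic bases in common with other genes. The 4 falls became 2 with library size alone, with upper-quartile factors, or without control replicate 1.

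Adaptors next to the receptors were mostly higher. Of 9 tested, 6 rose and 1 fell (median 0.33). CBLB, a ubiquitin ligase, rose by 1.15 and FRS2, the docking protein of fibroblast growth factor receptors, by 0.40. PTPN11, which encodes the phosphatase SHP2 that RAS activation by receptors requires, had 248 ± 2.84 CPM in knockdown and 415 ± 9.06 CPM in control (SD, n = 3 each). Its log2 fold change was -0.74.

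In the kinase cascade, 5 of 13 genes rose and 8 fell (median -0.20). BRAF, which encodes a RAF kinase, had 59.5 ± 1.61 CPM in knockdown and 44.0 ± 0.474 CPM in control (SD, n = 3 each), a log2 fold change of 0.44. The MEK genes MAP2K1 and MAP2K2 fell by 0.30 and 0.56, and the ERK gene MAPK3 fell by 0.50. PEBP1, whose product inhibits RAF signalling, fell by 0.61. With library size alone 4 genes of this list were lower.

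Genes for RAS lipid processing and turnover split into 2 that rose and 3 that fell of 8 (median -0.16). PDE6D, a carrier that moves prenylated RAS through the cytosol, had 22.7 ± 1.79 CPM in knockdown and 6.59 ± 1.04 CPM in control (SD, n = 3 each), a log2 fold change of 1.78. LZTR1, an adaptor for RAS ubiquitination, rose by 0.28, has 34.6% of its exonic bases in overlaps, and lost its call in DESeq2 and without replicate 1 of either group. ICMT, which methylates the RAS tail, fell by 0.83, and GOLGA7, the partner of the RAS palmitoyltransferase, fell by 0.55. Of 14 other effector genes 7 rose and 6 fell (median 0.18). TIAM1, a RAC exchange factor, rose by 1.24, RGL1 rose by 0.71 and RASSF1 fell by 0.33. RALGDS, with 2.37 CPM in knockdown and 3.50 CPM in control, fell by 0.57 but lost its call with library size alone or without knockdown replicate 1. Overlaps take up 39.9% of the exonic bases of RALGDS and 17.9% of those of RASSF1. The falls on this list numbered 3 with upper-quartile factors and 1 with library size alone.

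The relatives of the inhibitors rose where they were called, but 3 tested phosphatase genes and 2 Sprouty genes were not called. Among all tested genes, 30.7% were called higher and 61.6% in either direction. Of 6 other MAP kinase phosphatases tested, 3 rose and 0 fell (median 0.33). DUSP16 rose by 0.76, DUSP10 by 0.72 and DUSP1 by 0.49. DUSP10 and DUSP16 act mainly on the JNK and p38 kinases, and DUSP1 on ERK as well. DUSP7, a cytoplasmic ERK phosphatase and close relative of DUSP6, was at 28.3 CPM in knockdown and 31.2 CPM in control and was not called (log2 fold change -0.14, adjusted p of 0.0917 by edgeR). Leaving out knockdown replicate 2 or control replicate 3 gave 1 called fall on this list. SPRED3, the third SPRED gene, rose like SPRED1 and SPRED2, with 59.6 ± 4.97 CPM in knockdown and 38.8 ± 2.29 CPM in control (SD, n = 3 each) and a log2 fold change of 0.62. SPRY1 and SPRY3 were not called, at 0.30 and 0.19 with adjusted p-values of 0.0852 and 0.398 by edgeR. They averaged 6.25 and 3.56 CPM in knockdown and 5.09 and 3.12 CPM in control, far under SPRY2 and SPRY4 before any correction for length. This list had 2 called rises with upper-quartile factors, library size alone or thinned counts, and without replicate 2 of either group.

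Other transcripts known to be induced by ERK were divided too. Of 12 tested, 7 rose and 5 fell (median 0.28). EGR1, an immediate-early transcription factor, had 148 ± 20.7 CPM in knockdown and 32.6 ± 0.961 CPM in control (SD, n = 3 each), a log2 fold change of 2.18. ETV1 rose by 1.04, CCND1 (cyclin D1) by 0.29, and EPHA4 by 1.31, with 3.38 CPM in knockdown and 1.35 CPM in control. FOSL1, ETV4 and ETV5 fell by 0.49, 0.48 and 0.47, close to SPRY4. ETV4 and ETV5 are the ETS factors that with ETV1 form the PEA3 group, so that group was split too. The 5 falls became 3 with upper-quartile factors or library size alone.

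Many genes had the same pattern over the 6 libraries as NRAS. Of 12705 genes with a mean log2 CPM of at least 1, those with the highest Pearson correlation with NRAS were CERS2, PAM and COX8A, with r of 0.9999, 0.9999 and 0.9998. For DUSP6 they were KLF12, RIC1 and CBL, with r of 0.9975, 0.9969 and 0.9966. Libraries fall into 2 groups, so such values mostly restate the difference between groups. An r over 0.95 was reached by 25.3% of these genes for NRAS and by 5.55% for DUSP6.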

How the data were processed

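RNA of 6 NCI-H1299 libraries was measured. The deposited table holds raw counts per Ensembl gene, which the authors had not normalized. The submitters' processing notes name hg38 and 4 tools: STAR (2.7.0d), Trim Galore (0.6.6), DESeq2 (1.30.1) and featureCounts (2.0.1). The sources used here give no order of steps, annotation release, strand setting or handling of reads with several alignments, so genes with overlaps or close copies are uncertain. Names came from a table that matched 60261 of 60617 identifiers, coordinates and lengths from GENCODE v29 on GRCh38.

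The edgeR 4.0.16 function filterByExpr (minimum count 10) chose the genes to test. Libraries were scaled by TMM, and edgeR's quasi-likelihood test was run with robust dispersions and group alone as the model (R 4.3.3). The common biological coefficient of variation was 4.67%. SE is derived from the test statistic. Log2 CPM used a prior count of 2, and within-library ratios 0.5 added to each count. The fit was tested on simulated counts. Replicates of a group differed by more than sampling noise, with a chi-square per degree of freedom of 2.80 to 4.68.

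Alternatives were RLE, upper-quartile and library-size scaling, no filter, DESeq2 1.42.0, thinning, a replicate block and leaving out each library. The 9 genes, the lists and the tests were chosen with earlier results of these data known. Named genes are the 9, the 3 genes most like NRAS and the 3 most like DUSP6, and, per list, up to 2 called rises and 2 called falls by size, without overlap between groups and with mean log2 CPM of 1 or more (the 2 smallest p-values where none passes). Other genes named were chosen after their values were seen. Some genes that this rule names are not reported here.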

Additional observations from a re-analysis of the deposited data

How the results depend on the processing

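The 4 falls (NRAS, HRAS, SPRY2 and SPRY4) were called under all 13 alternatives, and so were the rises of DUSP5, DUSP6, SPRED1 and SPRED2. DUSP4 was weaker in DESeq2, at 1.07, and ranged from 0.79 to 1.58 when 1 library was left out. Leaving out 1 library reversed 2 small ratio differences, which then ranged from -0.0839 to 0.00667 for SPRY2/SPRY4 and from -0.0346 to 0.0562 for SPRED1/SPRED2. The 31 other pathway genes that fell became 14 with library size alone. For the pathway genes outside the 9 that the naming rule chose, over 390 values under alternatives 381 kept their call and 9 lost it, and 0 changed sign. Of 260 counts of single lists, 19 moved by over 1.5 times. With the longest annotated transcript as the length, mean levels over all libraries were 22.6 for HRAS, 32.3 for SPRY2, 17.9 for SPRY4, 11.99 for SPRED1 and 20.1 for SPRED2 in CPM per kilobase, against 15.0, 28.7, 14.6, 11.3 and 16.0 with merged exons. With the replicate number as a block, NRAS had a log2 fold change of -0.78 and DUSP4 of 1.13, and no call among the 9 changed. With group means taken out, knockdown and control libraries of replicate number 1, 2 and 3 correlated at -0.000751, -0.00642 and -0.0235. These values show no sign of pairing. They cannot exclude it, because each group mean rests on few libraries and counting noise can hide a shared effect. Depth limits DUSP4 most, with 14 to 49 counts per library, and at that depth its size is uncertain.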
